A study of Mus musculus with 9 samples.

Results

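Rax, Crym, Col23a1, Fezf1, Lhx2, Nkx2-1, Six3, Six6 and Otp mark the hypothalamus or the tanycytes that line it. These 9 symbols were looked up in the deposited gene table, where 8 of them were found among 18329 genes. Otp, a homeobox gene of neuroendocrine neurons, was not analysed here. RNA was sequenced from neuroglial progenitors of the TVZ, the ventricular zone that surrounds the third ventricle of the mouse brain, harvested on postnatal day 1. All mice were untreated, were kept on a C57/BL6 background and carried Nestin-CFPnuc, a transgene that puts a cyan fluorescent protein (CFP) in the nucleus under control of the Nestin promoter. Flow cytometry on CFP and on the surface protein CD133, encoded by Prom1, gave 3 populations with 3 libraries each: CD133+Nestin+, Nestin+ and CD133+. A sort number from 1 to 3, equal to the passage number, labels the libraries of each population. The labels do not say whether cells sorted on 1 marker lacked the other, nor whether libraries came from separate animals, so the spread behind each p-value may be technical. CFP reports the activity of a promoter in a cell and does not itself mark a cell type.

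Tanycytes are elongated radial glia of the floor and lower walls of the ventricle. They touch the ventricular fluid, send a process into the hypothalamus, handle thyroid hormone and can act as progenitors. In the embryo, homeodomain factors such as Rax, Six3, Six6, Lhx2 and Nkx2-1 lay out the hypothalamus from the anterior neural tube, and Rax and Lhx2 remain in use in tanycytes.

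Values are CPM, a count of reads scaled by library size. This unit was inferred, and 1 read was worth 0.0286 to 0.0344 CPM. Each difference is a log2 value ± SE of log2(CPM + 1), a scale on which differences of genes at low CPM come out too small, and p-values are adjusted over 16143 genes. The level of a gene in sorted bulk RNA cannot tell apart fewer cells of a type and less RNA per cell. The sort markers followed the labels: Prom1 averaged 147 ± 32.7 CPM in CD133+Nestin+, 51.0 ± 10.3 in Nestin+ and 169 ± 20.0 in CD133+ libraries, and Nes averaged 198 ± 22.6 CPM in CD133+Nestin+, 173 ± 20.0 in Nestin+ and 51.2 ± 10.1 in CD133+ libraries (SD, n = 3). The listed genes took up 65.9% to 87.6% of the CPM total, lowest in CD133+Nestin+ replicate 2, with Nestin+ replicate 2 next at 70.4%. The libraries of sort 1 were the highest, at 87.3% to 87.6%. In CD133+Nestin+ replicate 2, 21 genes were at 0, against 0 to 5 genes in each other library.

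In Nestin+ compared with CD133+ cells, all 3 Nestin+ libraries lay above all 3 CD133+ libraries for 7 of the 8 genes, and below them for Fezf1. Crym, Col23a1 and Rax rose and Fezf1 fell at an adjusted p under 0.05. Among all genes tested, 2.45% were called higher and 9.42% lower, 11.9% in all. Groups that did not overlap were found for 33% of all genes, 11.8% with the Nestin+ libraries higher and 21.1% with them lower. The median log2 difference was 1.08 over the 8 genes and -0.02 over all genes tested. With the sort number as a block, Nkx2-1 and Six6 were also called, which gave 5 higher and 1 lower, where 6.06% of all genes were called higher and 13.1% lower, 19.2% in all.

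**Figure D1:**
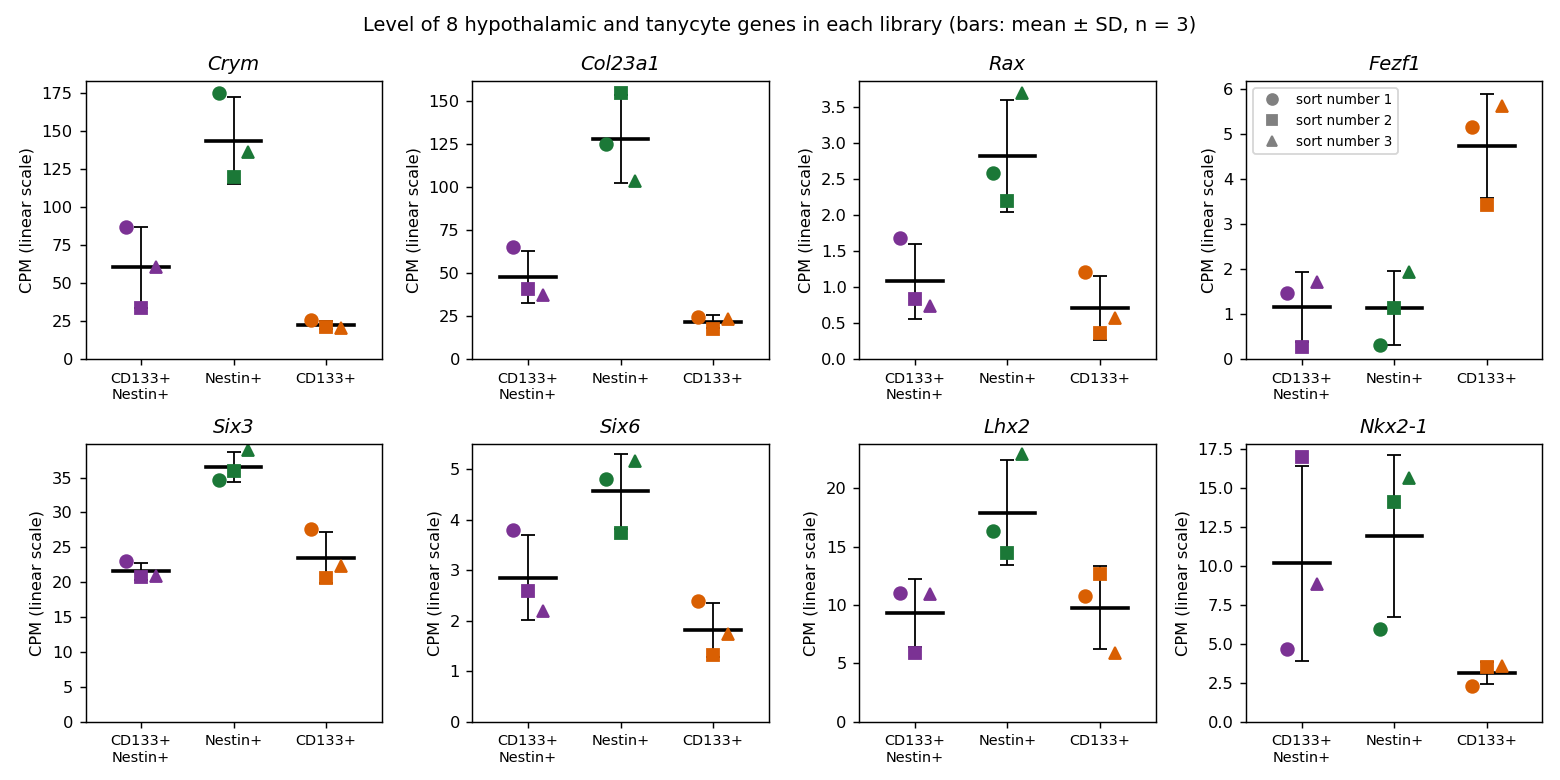
CPM (y axes, linear) of the 8 genes in each of 9 libraries, with CD133+Nestin+, Nestin+ and CD133+ on the x axis; marker shapes show the sort number and bars the mean ± SD of 3 libraries. Crym and Col23a1 form 3 separate levels, whereas Fezf1 is high in the CD133+ libraries alone, at 3.42 to 5.62 CPM.

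Crym encodes mu-crystallin, a cytosolic protein that binds thyroid hormone, and lies on chromosome 7 (120186380 to 120202111, minus strand, GRCm38). Its libraries held 86.7, 33.6 and 60.6 CPM in CD133+Nestin+ cells, 175, 120 and 136 CPM in Nestin+ cells, and 25.5, 21.4 and 20.4 CPM in CD133+ cells. The 3 populations did not overlap, and every CD133+Nestin+ library lay between the Nestin+ and the CD133+ libraries. The log2 difference between Nestin+ and CD133+ was 2.61 ± 0.33, with an adjusted p of 0.000552. Sort by sort, this difference was 2.73, 2.43 and 2.68, similar in every sort. Between CD133+Nestin+ and CD133+ the difference was 1.29 ± 0.33 and not called, at an adjusted p of 0.0728, but called with the sort number as a block, at 0.0124. Between CD133+Nestin+ and Nestin+ it was -1.32 ± 0.33, with an adjusted p of 0.058, and 0.00948 with the block.

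Col23a1 encodes a transmembrane collagen used as a tanycyte marker and lies on chromosome 11 (51289920 to 51583918, plus strand). Its values were 65.1, 40.5 and 37.2 CPM in CD133+Nestin+ cells, 125, 155 and 104 CPM in Nestin+ cells, and 24.5, 17.5 and 23.3 CPM in CD133+ cells. As for Crym, the CD133+Nestin+ libraries lay between the others without overlap. The difference of Nestin+ from CD133+ was 2.49 ± 0.28 (adjusted p 0.000289), and it was 2.30, 3.07 and 2.10 in sorts 1 to 3. CD133+Nestin+ cells had less Col23a1 than Nestin+ cells, by a log2 difference of -1.43 ± 0.28 (adjusted p 0.0193). That call was lost without CD133+Nestin+ replicate 3, Nestin+ replicate 1 or Nestin+ replicate 2. Against CD133+, CD133+Nestin+ cells differed by 1.06 ± 0.28, with an adjusted p of 0.0854, and 0.0368 with the block.

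Rax encodes the retina and anterior neural fold homeobox factor, which the eye, the hypothalamus and tanycytes require, and lies on chromosome 18 (65928277 to 65939787, minus strand). It was scarce, with 1.68, 0.828 and 0.729 CPM in CD133+Nestin+ cells, 2.58, 2.19 and 3.68 CPM in Nestin+ cells, and 1.21, 0.36 and 0.57 CPM in CD133+ cells. These correspond to about 55, 25 and 25 reads in CD133+Nestin+, 75, 67 and 119 in Nestin+ and 42, 11 and 19 in CD133+ libraries. The Nestin+ libraries were the highest of all 9, and the other populations overlapped. Only 5 libraries reached 1 CPM, and the filter was passed mainly through the Nestin+ group. The rise in Nestin+ over CD133+ cells was 1.17 ± 0.32 (adjusted p 0.038), and it was lost without any of 6 single libraries. These were CD133+Nestin+ replicate 3, the 3 Nestin+ libraries, and CD133+ replicates 2 and 3. The call of Rax was also lost at a pseudocount of 0.1 in place of 1. CD133+Nestin+ cells differed by 0.28 ± 0.32 from CD133+ (adjusted p 0.768) and by -0.89 ± 0.32 from Nestin+ (adjusted p 0.225), neither of which was called.

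Fezf1, a zinc finger repressor of the early forebrain that later marks the ventromedial hypothalamus, lies on chromosome 6 (23245044 to 23248362, minus strand). It ran the other way, with 1.47, 0.265 and 1.72 CPM in CD133+Nestin+ cells, 0.309, 1.14 and 1.94 CPM in Nestin+ cells, and 5.17, 3.42 and 5.62 CPM in CD133+ cells. All 3 CD133+ libraries stood above the other 6, which overlapped. The lowest 2 values came from CD133+Nestin+ replicate 2, with about 8 reads, and Nestin+ replicate 1, with about 9 reads. Nestin+ cells had less Fezf1 than CD133+ cells, by -1.48 ± 0.41 (adjusted p 0.0368), a call lost without Nestin+ replicate 1 or 2 or any of the CD133+ libraries. At a pseudocount of 0.1 in place of 1 this difference was -2.23, and it was not called (adjusted p 0.0997). CD133+Nestin+ cells differed from CD133+ by -1.47 ± 0.41, with an adjusted p of 0.105, and 0.0419 with the block. Between CD133+Nestin+ and Nestin+ the difference was 0.01 ± 0.41 (adjusted p 0.995), with a 95% interval from -0.88 to 0.91.

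Promoters were available from RefSeq (GRCm38.p6) for 6 of the 8 genes. Those of Col23a1 and Fezf1 are shown as the called genes with an entry that changed in opposite directions, from 250 bases before to 50 bases after the start that RefSeq gives. For Fezf1 this start lies inside the annotated span given above, so part of its window, and its match, falls within that span. Capitals mark matches to AAGTG or its reverse CACTT, the core bound by NK2 homeodomain proteins such as Nkx2-1.
Col23a1, chr11:51289670-51289969, plus strand: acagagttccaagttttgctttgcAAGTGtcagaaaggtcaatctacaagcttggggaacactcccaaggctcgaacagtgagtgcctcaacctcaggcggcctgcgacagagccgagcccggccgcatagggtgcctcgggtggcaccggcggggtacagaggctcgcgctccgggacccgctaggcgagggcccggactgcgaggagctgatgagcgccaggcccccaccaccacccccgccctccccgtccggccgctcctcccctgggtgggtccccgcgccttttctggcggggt
Fezf1, chr6:23248215-23248514, minus strand: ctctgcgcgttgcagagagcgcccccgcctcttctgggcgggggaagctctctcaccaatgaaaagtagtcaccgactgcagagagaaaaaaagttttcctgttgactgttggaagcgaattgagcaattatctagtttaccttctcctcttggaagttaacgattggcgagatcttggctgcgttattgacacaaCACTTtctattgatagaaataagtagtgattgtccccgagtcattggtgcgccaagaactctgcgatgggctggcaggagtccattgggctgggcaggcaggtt
Col23a1 held 1 forward match, 226 bases before the RefSeq start, and Fezf1 held 1 reverse match, 54 bases before the RefSeq start. Such a match, on either strand, was present in 46.4% of 32851 promoters of the same length. The homeodomain core TAAT, or its reverse ATTA, had 0 matches in Col23a1 and 1 in Fezf1, against 58.0% of all promoters with at least 1. The Col23a1 window was 67.7% G or C with 24 CpG sites, and the Fezf1 window was 50% G or C with 13, against a median of 7 CpG sites over all promoters. A match describes the letters of these windows and is not a binding site.

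**Figure D2:**
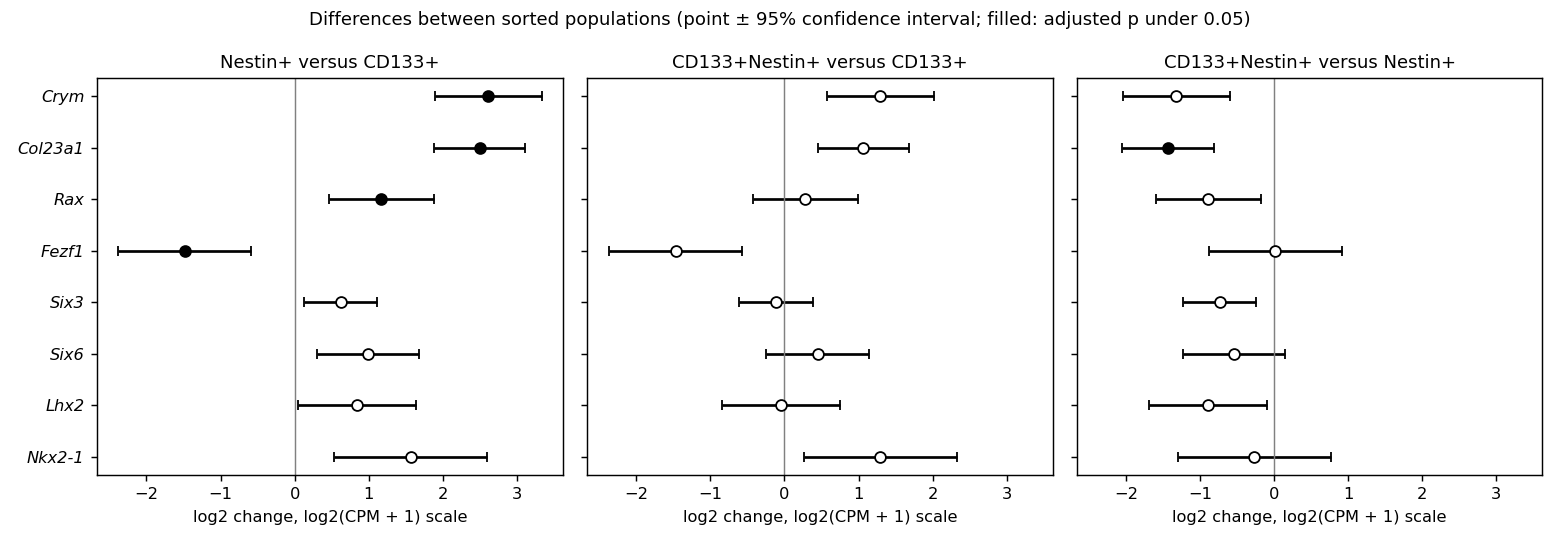
Log2 differences (x axes, log2(CPM + 1) scale) of the 8 genes in the 3 comparisons, each point with its 95% confidence interval; filled points had an adjusted p under 0.05. Crym and Col23a1 have the largest differences between Nestin+ and CD133+ cells, 2.61 and 2.49, and Col23a1 has the only filled point between CD133+Nestin+ and Nestin+ cells.

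Nkx2-1, the homeodomain factor that specifies the ventral hypothalamus, lies on chromosome 12 (56531958 to 56536908, minus strand). It showed 4.68, 17.0 and 8.83 CPM in CD133+Nestin+ cells, 5.98, 14.1 and 15.6 CPM in Nestin+ cells, and 2.28, 3.48 and 3.61 CPM in CD133+ cells. Both populations sorted on the Nestin reporter lay above every CD133+ library, and in each population the library of sort 1 was the lowest. The difference of Nestin+ from CD133+ was 1.56 ± 0.47 and not called, at an adjusted p of 0.0543, and called with the block, at 0.00726. For CD133+Nestin+ against CD133+ it was 1.30 ± 0.47, with an adjusted p of 0.248, and 0.0488 with the block. CD133+Nestin+ differed from Nestin+ by -0.27 ± 0.47 (adjusted p 0.887), with a 95% interval from -1.30 to 0.76.

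Six3, a repressor that keeps the anterior forebrain from taking a more posterior fate, lies on chromosome 17 (85613608 to 85629302, plus strand). Its values were 23.0, 20.8 and 20.8 CPM in CD133+Nestin+ cells, 34.6, 36.0 and 38.9 CPM in Nestin+ cells, and 27.6, 20.7 and 22.3 CPM in CD133+ cells. The Nestin+ libraries lay above the other 6, which overlapped. Nestin+ differed from CD133+ by 0.62 ± 0.22 (adjusted p 0.110) and CD133+Nestin+ differed from Nestin+ by -0.73 ± 0.22 (adjusted p 0.133), and neither was called. CD133+Nestin+ differed from CD133+ by -0.11 ± 0.22 (adjusted p 0.870), a value whose sign changed with median centring. Six3 overlaps its antisense gene Six3os1, which averaged 26.4 ± 3.33 CPM in CD133+Nestin+, 54.8 ± 4.39 in Nestin+ and 33.3 ± 8.08 in CD133+ libraries. Six3os1 was likewise highest in Nestin+ cells, with a difference of 0.73 ± 0.25 from CD133+ (adjusted p 0.0894, and 0.0409 with the block). Because it is not known here whether reads were counted by strand, the reads of Six3 and Six3os1 cannot be told apart.

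Six6, a close relative of Six3 in the eye, hypothalamus and pituitary, lies on chromosome 12 (72939892 to 72944899, plus strand). It gave 3.79, 2.58 and 2.19 CPM in CD133+Nestin+ cells, 4.80, 3.73 and 5.15 CPM in Nestin+ cells, and 2.39, 1.31 and 1.74 CPM in CD133+ cells. Nestin+ and CD133+ libraries did not overlap, and the CD133+Nestin+ libraries overlapped both. Its difference of Nestin+ from CD133+ was 0.99 ± 0.31, with an adjusted p of 0.068, and 0.033 with the block. CD133+Nestin+ differed by 0.45 ± 0.31 from CD133+ (adjusted p 0.621) and by -0.54 ± 0.31 from Nestin+ (adjusted p 0.535).

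Lhx2, a LIM homeodomain factor needed for tanycyte development, lies on chromosome 2 (38339281 to 38369733, plus strand). It had 11.0, 5.93 and 11.0 CPM in CD133+Nestin+ cells, 16.4, 14.4 and 23.0 CPM in Nestin+ cells, and 10.8, 12.7 and 5.86 CPM in CD133+ cells. Nestin+ libraries were the highest of all, and the others overlapped over their whole ranges. No difference was called: Nestin+ against CD133+ gave 0.85 ± 0.36 (adjusted p 0.185), and CD133+Nestin+ against Nestin+ gave -0.90 ± 0.36 (adjusted p 0.296). CD133+Nestin+ against CD133+ gave -0.05 ± 0.36 (adjusted p 0.967), and the sign of this small value changed with the scaling and with several libraries left out. Nkx2-1, Six6, Rax and Lhx2 each overlap a gene on the opposite strand as well, so the limit on strand holds for them.

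Compared per kilobase of merged exon, Crym was the most abundant of the 8 genes in each population, at a level of 17.8 CPM per kb in CD133+Nestin+, 42.4 in Nestin+ and 6.62 in CD133+ cells. Col23a1 came next in CD133+Nestin+ and Nestin+ cells, at 8.29 and 22.3 CPM per kb, but had 3.80 ± 0.657 in CD133+ cells, where Six3 had 4.32 ± 0.664. Those neighbours lay within each other's spread (SD, n = 3). Six3, Nkx2-1 and Lhx2 followed in Nestin+ cells at 6.70 ± 0.402, 4.19 ± 1.83 and 4.08 ± 1.02 CPM per kb, and Nkx2-1 and Lhx2 did not differ beyond their spread. In CD133+Nestin+ cells Six3, Nkx2-1 and Lhx2 had 3.96 ± 0.231, 3.58 ± 2.20 and 2.12 ± 0.665 CPM per kb, and the spread of Nkx2-1 covered the other two. In CD133+ cells Nkx2-1, at 1.10 ± 0.258, stood below Lhx2, at 2.23 ± 0.803, and below Fezf1, at 1.97 ± 0.483, which were within each other's spread. Six6 had 0.712 CPM per kb in CD133+Nestin+, 1.14 in Nestin+ and 0.453 in CD133+ cells. Rax and Fezf1 were the lowest in Nestin+ cells, at 0.482 ± 0.133 and 0.469 ± 0.339, and did not differ there beyond their spread. In CD133+Nestin+ cells Rax had 0.184 ± 0.0891 and Fezf1 0.478 ± 0.323, within the spread of Fezf1. In CD133+ cells Rax was the lowest, at 0.122 ± 0.0759, below Six6 at 0.453 ± 0.135.

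CD133+Nestin+ cells were set against each single-marker population in turn, and the 3 comparisons share libraries, so their values are given side by side and not as separate evidence. Against CD133+, 0 of the 8 genes passed at an adjusted p under 0.05 in limma, where 2.42% of all genes did (0.297% higher and 2.12% lower), and 4 had an unadjusted p under 0.05. With the sort number as a block the same 4 genes were called, Crym, Col23a1 and Nkx2-1 higher and Fezf1 lower, where 4.81% of all genes were called (1.12% higher and 3.69% lower). These 4 were also the genes whose libraries did not overlap between the populations, as for 17.5% of all genes (6.56% higher and 10.9% lower). Without CD133+Nestin+ replicate 2, the library with the lowest share of listed genes, Crym was called without the block, at 1.66 (adjusted p 0.00841). Col23a1 then stood at 1.16, Nkx2-1 at 0.87 and Fezf1 at -1.12, not called. With the block and without that library, Crym and Col23a1 were called and Nkx2-1 and Fezf1 were not, at an adjusted p of 0.0795 and 0.0767. Against Nestin+, Col23a1 alone was called, and it was lower, as for 0.254% of all genes (3.13% in either direction, 2.87% higher). Without CD133+Nestin+ replicate 2 its difference was -1.34 and still called. Crym joined it with the block, where 6.09% of all genes were called, 4.97% higher and 1.12% lower. Crym, Col23a1, Rax, Lhx2 and Six3 had all 3 CD133+Nestin+ libraries below all 3 Nestin+ libraries, as for 6.21% of all genes (17.3% in either direction). The median difference over the 8 genes was 0.36 against CD133+ and -0.81 against Nestin+, beside -0.06 and -0.04 over all genes tested.

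The genes nearest to each called member were found by the root mean square difference, over 9 libraries, of log2(CPM + 1) values centred on each gene's mean, which is a description. Rax was closest to Six6, at 0.168 log2 units against its own spread of 0.566, then to Rprm at 0.186 and Cdk5r1 at 0.194. Crym was closest to Il1rap at 0.332, Col23a1 at 0.349 and Tmem151b at 0.352, with an own spread of 1.12. Col23a1 was closest to Susd4 at 0.224, Ntrk3 at 0.261 and Il1rap at 0.270, with an own spread of 1.06. Fezf1 was closest to Sh3pxd2a at 0.221, Dse at 0.244 and Chst14 at 0.262, with an own spread of 0.815. Among pairs of the 8 genes, Rax with Six6, at 0.168, and Six3 with Six6, at 0.273, had the smallest differences, and Crym with Fezf1, at 1.76, the largest. These differences are not scaled by own spread, so their ranking also depends on how much each gene varies. The log2(CPM + 1) scale compresses low values such as those of Rax and Six6.

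**Figure D3:**
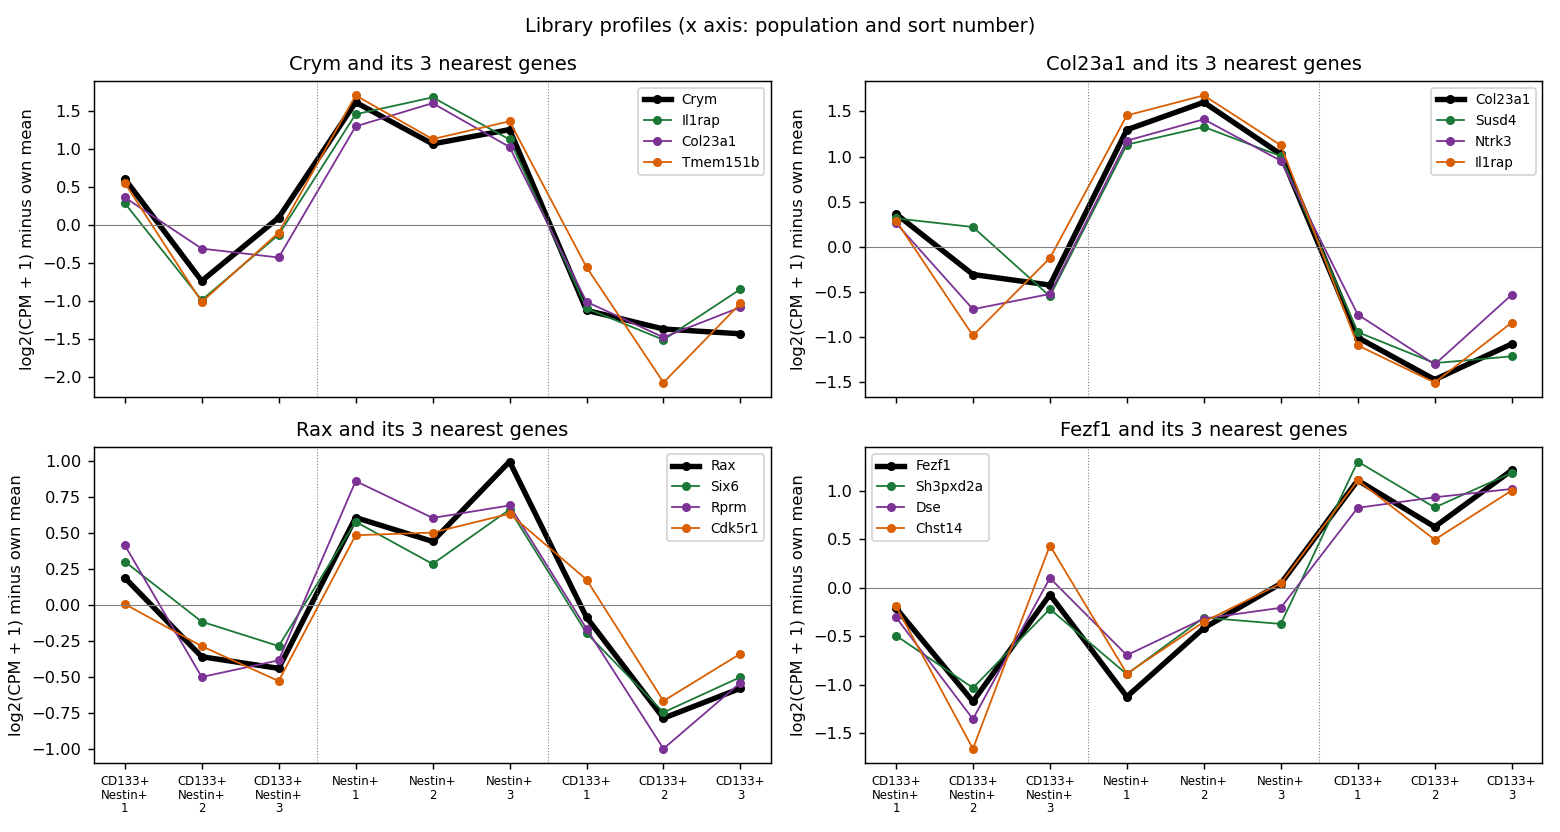
Centred log2(CPM + 1) (y axes) of Crym, Col23a1, Rax and Fezf1 in black, each with its 3 nearest genes in colour, over the 9 libraries named by population and sort number. Crym and Il1rap both dip in CD133+Nestin+ replicate 2, and the Fezf1 group is highest in the 3 CD133+ libraries.

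Other genes of tanycytes moved in both directions between Nestin+ and CD133+ cells. Of 22 measured tanycyte genes, 8 rose and 3 fell, with a median difference of 1.12. Frzb, a secreted Wnt antagonist, averaged 45.9 ± 12.3 CPM in Nestin+ and 3.19 ± 0.895 in CD133+ cells, a rise of 3.47 ± 0.38 (adjusted p 0.000267). Gpr50, a melatonin-related orphan receptor of tanycytes, averaged 80.5 ± 17.5 CPM in Nestin+ and 13.4 ± 5.71 in CD133+ cells, a rise of 2.55 ± 0.36 (adjusted p 0.00112). Slco1c1, a thyroid hormone transporter that brain endothelium also makes, fell to 19.6 ± 4.64 CPM in Nestin+ cells, against 181 ± 51.3 in CD133+ cells, by -3.12 ± 0.28 (adjusted p 8.70e-05). Penk, a neuropeptide precursor, fell by 1.98 ± 0.32 on the log2 scale (adjusted p 0.00238). The count of higher genes was 4 without Nestin+ replicate 2 or CD133+ replicate 2, and 5 without Nestin+ replicate 3 or CD133+ replicate 1. With the block, 12 rose and 4 fell.

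In CD133+Nestin+ compared with CD133+ cells, 2 tanycyte genes rose and 3 fell. Pdzph1 rose by 2.41 ± 0.42 (adjusted p 0.0126) and Gpr50 by 1.90 ± 0.36 (adjusted p 0.0198), while Slco1c1 (adjusted p 0.00311) and Penk (adjusted p 0.0125) changed by -2.09 ± 0.28 and -1.84 ± 0.32. Without CD133+ replicate 3, 0 rose and 1 fell, and without CD133+ replicate 2, 1 rose and 1 fell. Without CD133+Nestin+ replicate 3, 1 rose and 2 fell. With the block 4 rose and 4 fell. Compared with Nestin+ cells, Col25a1, a transmembrane collagen as Col23a1 is, changed by -2.10 ± 0.36 (adjusted p 0.0108) and Frzb by -2.02 ± 0.38 (adjusted p 0.0159). These 2 were the called genes of the list, against 0 without Nestin+ replicate 2, 1 without CD133+Nestin+ replicate 3, Nestin+ replicate 1 or Nestin+ replicate 3, and 3 with the block. Col25a1 reached 1 CPM in the 3 Nestin+ libraries and 1 other, and so passed mainly through the group where it is high.

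The wider set of hypothalamic transcription factors was mostly not called. Of 23 listed, 12 were in the table and 11 could be tested. Gsx1, a homeobox gene of hypothalamic progenitors, averaged 2.16 ± 0.469 CPM in Nestin+ and 0.420 ± 0.136 in CD133+ cells, a rise of 1.15 ± 0.28 (adjusted p 0.0211), and was the single gene called there. Its 3 Nestin+ libraries alone reached 1 CPM, so it passed the filter only through the group where it is high and had to differ. The call was lost without Nestin+ replicate 2 or 3 or CD133+ replicate 2 or 3, and the list then had 0 called genes, while it had 5 higher genes without CD133+Nestin+ replicate 2 and 2 with the block. Lmx1b, a LIM homeobox gene, was higher in CD133+Nestin+ than in Nestin+ cells, by 1.43 ± 0.32 (adjusted p 0.0383), a call lost without any of 5 single libraries. It reached 1 CPM in the 3 CD133+Nestin+ libraries and 1 other, and so passed mainly through the group where it is high.

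Of 18 genes listed for hypothalamic neuropeptides and for histamine (Hdc), 6 were in the table and 5 could be tested. In Nestin+ compared with CD133+ cells 0 rose and 1 fell, which was Hdc and not a neuropeptide gene. Hdc, which makes histamine, averaged 109.9 ± 10.7 CPM in CD133+Nestin+, 11.3 ± 6.14 in Nestin+ and 131 ± 59.3 in CD133+ cells, and was called lower in Nestin+ than in CD133+ cells, by -3.44 ± 0.38 (adjusted p 0.000278). It was called higher in CD133+Nestin+ than in Nestin+ cells, by 3.28 ± 0.38 (adjusted p 0.0023). Pdyn (2.21 ± 0.40, adjusted p 0.0128) and Npy (1.63 ± 0.31, adjusted p 0.0159) also rose in that comparison. The list had 1 called gene there without CD133+Nestin+ replicate 3 or Nestin+ replicate 2. Npy was called against CD133+ as well, at 1.50 ± 0.31 (adjusted p 0.0279), a call that 5 of the 9 libraries could each remove when left out. Npy and Hdc are also made outside the hypothalamus, Hdc in mast cells among others.

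Genes of neighbouring regions were measured for contrast. Of 3 eye field and optic genes, Pax6 fell in Nestin+ compared with CD133+ cells, with a log2 difference of -1.50 ± 0.38 (adjusted p 0.0245). Among telencephalic factors, Dlx1 rose in that comparison, at 6.41 ± 2.25 CPM in Nestin+ and 1.36 ± 0.480 in CD133+ cells (1.63 ± 0.35, adjusted p 0.0107). Of 2 thalamic and prethalamic factors, Tcf7l2 rose there by 1.04 ± 0.30 (adjusted p 0.0454). Dbx1 rose in CD133+Nestin+ cells, by 2.20 ± 0.35 against CD133+ (adjusted p 0.00789) and 1.80 ± 0.35 against Nestin+ (adjusted p 0.0196). When 1 library was left out, Pax6 was not called in 3 fits of 9, Dbx1 against Nestin+ in 4, Tcf7l2 in 7 and Dlx1 in 1. Pituitary genes, 7 in number, were not analysed here.

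Markers of other cell types moved with the same comparisons. In Nestin+ compared with CD133+ cells, 7 of 9 oligodendrocyte precursor genes rose, and 8 with the block. Their summed level was 1031 to 1565 CPM in Nestin+ and 118 to 262 CPM in CD133+ libraries. Of 9 neuronal genes 3 rose, and 6 with the block, with sums of 206 to 270.0 CPM in Nestin+ and 43.5 to 140.4 CPM in CD133+ libraries. In the neural stem and radial glia list of 11, Hes5 and Ptprz1 rose, with calls lost in 4 and 5 of 9 cases when 1 library was left out. Sox2 differed by 0.56 ± 0.35 (adjusted p 0.411), and Gfap went the other way, by -1.73 ± 0.59 (adjusted p 0.0879). With the block 4 genes of this list rose and 1 fell, Gfap (adjusted p 0.000508). All 10 ependymal, 5 endothelial and 9 microglial genes measured fell, as did 5 of 6 mural and fibroblast genes and Folr1, 1 of 2 choroid plexus genes. All 5 erythroid genes fell too, but 3 were called without Nestin+ replicate 1 or 3 or CD133+ replicate 2 or 3. The endothelial sum was 15.4 to 25.5 CPM in Nestin+ and 451 to 887 CPM in CD133+ libraries. The microglial sum was 33.4 to 97.2 CPM in Nestin+ and 871 to 2507 CPM in CD133+ libraries. Of the listed markers that were measured, none was under 3 reads in all libraries of a population. Listed markers without a measured value could not be checked. The part of these cell types in the differences of the 8 genes was not tested.

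Between CD133+Nestin+ and CD133+ cells, the 5 endothelial and 9 microglial genes were lower in CD133+Nestin+ cells, where the endothelial sum was 27.0 to 44.6 CPM and the microglial sum 37.2 to 292 CPM. The microglial count was 2 without CD133+ replicate 3, 4 without CD133+ replicate 1 and 5 without CD133+Nestin+ replicate 3. The ependymal sum was 1397 to 1858 CPM in CD133+Nestin+, 303 to 399.9 in Nestin+ and 1509 to 2972 in CD133+ libraries. All 10 ependymal genes were higher in CD133+Nestin+ than in Nestin+ cells, but 6 were called without CD133+Nestin+ replicate 3 or Nestin+ replicate 2. Oligodendrocyte precursor genes summed to 254 to 711 CPM in CD133+Nestin+ libraries, below the Nestin+ range and overlapping the upper end of the CD133+ range. Of these genes 4 of 9 were lower than in Nestin+ cells, and 5 with the block. The count was 2 without CD133+ replicate 3 and 0 without CD133+Nestin+ replicate 2 or 3 or any 1 Nestin+ library. Crym and Col23a1 were likewise highest in Nestin+ cells, and the part of oligodendrocyte precursors in this was not tested.

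**Figure D4:**
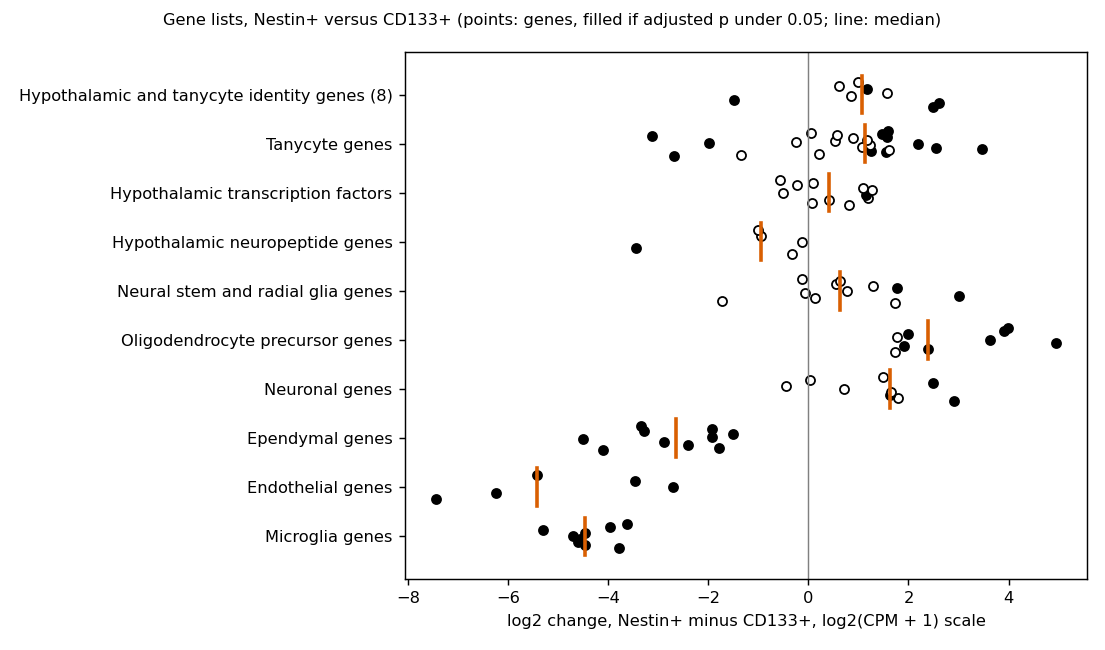
Log2 difference of Nestin+ minus CD133+ (x axis, log2(CPM + 1) scale) for each tested gene of 10 lists (y axis); filled points had an adjusted p under 0.05 and orange lines are medians. The medians are 1.08 for the 8 genes, 1.12 for other tanycyte genes and 2.40 for oligodendrocyte precursor genes, and -2.65 for ependymal genes.

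In the authors' deposited table of comparisons, Crym had a false discovery rate of 0.00111 and a ratio of 6.41 for Nestin+ over CD133+, and Col23a1 had 0.000608 and 5.87. In the same authors' deposited table Rax had a ratio of 3.95 at a rate of 0.0643, and Fezf1 had a ratio of 0.239 at a rate of 0.135, so 2 of the 8 genes were under 0.05, where 9.07% of all genes were. For Nestin+ over CD133+Nestin+, the authors' deposited table gave Col23a1 a ratio of 2.69 and a rate of 0.025, the 1 gene of the 8 under 0.05, where 2.59% of all genes were. For CD133+ over CD133+Nestin+, 0 of the 8 genes were under 0.05 in the authors' deposited table, where 0.955% of all genes were.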

How the data were processed

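Per the labels, 9 libraries of mouse total RNA were read on a HiSeq. STAR 2.5.3a, Partek 8.0, bcl2fastq, limma and the mm10 build appear in the submitters' processing notes, with no role or order; the counting method and its use of strand are not given in the sources used here. The authors' deposited gene table was taken as CPM with an offset of 0.0001, a unit inferred from its values. Only 41.8% to 60.4% of a library's low values came out as whole reads (tolerance 0.02 reads), so a count test could not be used. A level of 3 reads was 0.0858 to 0.103 CPM, for counting error only. The second deposited table gave the authors' p-value, false discovery rate and ratio of group means for each pair of populations, per the file headers.

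Values were transformed as log2(CPM + 1). A gene was kept when 3 or more libraries reached 1 CPM (16143 kept, 2186 dropped). Means of the 3 groups were fitted with limma 3.58.1 (R 4.3.3) and trended, robust variances (6 residual degrees of freedom, median prior 4.93) and Benjamini-Hochberg adjustment at 0.05. SDs use the 3 libraries of a group. SEs come from the fit to all 9 libraries, so a gene has the same SE in all 3 comparisons. The population outside a comparison therefore also enters its SE. Libraries of the same sort number deviated together (r = 0.204 to 0.73 in 9 pairs, -0.527 to 0.314 in 18 other pairs), but to differing degrees. The values were 0.582 to 0.73 in sort 1, 0.322 to 0.369 in sort 2 and 0.204 to 0.224 in sort 3. Pairs of sort 2 with sort 3 reached 0.314, so sort 3 did not stand clear of them. Pairs of sort 1 with another sort gave -0.527 to -0.160. On these grounds alone, since the labels do not say it, same-numbered libraries were treated as paired in the blocked fit. The main fit ignored the sort number, and it gave every limma difference, SE and call reported without a named alternative. Results of the blocked fit are given where the block changes a call. The fit was also run on simulated data with independent libraries, in which only genes of higher CPM were changed. That run does not cover libraries that deviate together, or genes as scarce as Rax and Fezf1. Positions are from GENCODE on GRCm38, and plots used Python 3.11.15 and matplotlib 3.10.9. The genes and gene lists were chosen with earlier results of these data known. Up to 4 called genes of smallest p in each list and the 3 nearest profiles of each called member were eligible to be named. Alternatives were the block, a pseudocount of 0.1, other filters, median centring, quantile normalization, library weights, subsets of the libraries and leaving out each library. A few called list genes are not reported here.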

Additional observations from a re-analysis of the deposited data

How the results depend on the processing

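Nestin+ against CD133+ had 4 of the 8 genes called. It had 6 with the replicate block, 2 at a pseudocount of 0.1, 2 with a filter of 5 CPM, which left 5 of the 8 genes to test and removed Rax, Fezf1 and Six6, 7 with quantile normalization, 8 with library weights, 7 with the block without CD133+Nestin+ replicate 2, and 2 to 6 when 1 library was left out. CD133+Nestin+ against CD133+ had 0, and 4 with the block, 1 with median centring, 1 with quantile normalization, 3 with weights, 2 with the block without CD133+Nestin+ replicate 2, and 0 to 1 when 1 library was left out. CD133+Nestin+ against Nestin+ had 1, and 2 with the block, with or without that library, 2 with the filter of 5 CPM, 2 with quantile normalization, and 0 to 2 when 1 library was left out. The weights did not fully converge. Calls over all genes also changed with the setting, so these counts are to be read beside the totals below. Those totals are not reported here for quantile normalization, median centring and the filter of 5 CPM.

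Over all 16143 genes tested, Nestin+ against CD133+ had 1915 calls (11.9%), 1767 at a pseudocount of 0.1, 3094 with the block (19.2%) and 4182 with weights. It had 4916 with the block without CD133+Nestin+ replicate 2, and 1082 to 2763 when 1 library was left out. CD133+Nestin+ against CD133+ had 390, 776 with the block, 711 with weights, 807 with the block without that library, 198 with the 6 libraries alone, and 131 to 470 when 1 was left out. CD133+Nestin+ against Nestin+ had 505, 983 with the block, 1324 with the block without that library, and 172 to 664 when 1 was left out. Crym and Col23a1 were called between Nestin+ and CD133+ in all 20 alternatives. In that comparison the median over all genes moved by 0.13 with median centring and 0.15 with quantile normalization.

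Small differences changed sign. For CD133+Nestin+ against CD133+, Lhx2 (-0.05) was 0.076 with median centring, 0.086 with quantile normalization, 0.57 with weights, 0.25 with the block without CD133+Nestin+ replicate 2, and -0.35 to 0.21 when 1 library was left out. Six3 (-0.11) was 0.016 with median centring and -0.20 to 0.0027 when 1 library was left out. For CD133+Nestin+ against Nestin+, Fezf1 (0.01) was -0.44 with the libraries numbered 2 and 3 only and -0.30 to 0.36 when 1 was left out, and Nkx2-1 (-0.27) was -0.69 to 0.14. The cause of these changes was not tested. Depth limits Rax and Fezf1, whose lowest libraries held about 11 and 8 reads.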
